A study of Saccharomyces cerevisiae with 16 samples.

Results

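The response of wild-type budding yeast to methyl methanesulfonate (MMS) during S phase was measured directly on 2 of the 16 2-colour arrays of the series, those whose titles name wild type, S phase and MMS treatment. Each array set RNA of treated cells against RNA of untreated cells and covered 4073 named genes. The strain background was W303 with a genotype given as wild type, and every culture of the series, controls included, had first been held in G1 with the mating pheromone alpha factor. For S phase the arrest lasted 2 h, after which the cells were washed and grown for 1 h in fresh medium that held either 0.05% MMS or no MMS. Comparisons used below for contrast were wild type in G1 (alpha factor for 1 h, then 0.05% MMS for 1 h or none) and W303 cells carrying esa1-L254P::NatRMX4, an allele of the catalytic subunit of the NuA4 histone acetyltransferase, treated in S phase as the wild type was. Each comparison had 2 arrays with exchanged dyes: the treated RNA carried Cy5 on array 1 and Cy3 on array 2. The labels do not say whether both arrays carried RNA of 1 culture, so p-values measure the spread between arrays, which may be technical. They give neither the mating type nor the number of clones, and the arrays give ratios and no levels, so neither could be checked against marker genes.

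MMS methylates DNA bases, and the lesions block polymerases at the replication fork. In budding yeast the stalled fork activates the Mec1 and Rad53 kinases, which hold back late origins and mitosis and, through Dun1 and loss of the repressor Rfx1 (Crt1) from promoters, raise transcription of ribonucleotide reductase and other damage-inducible genes. Cells leaving an alpha factor arrest also pass through a fixed order of transcription waves: the G1/S genes of SBF and MBF, then S and G2 genes, then the CLB2 cluster of mitotic genes, then M/G1 genes. MMS further alkylates thiols and proteins, and general stress raises oxidant defence and protein turnover genes and lowers genes for making ribosomes.

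Values are log2 ratios of treated over untreated RNA as deposited, on the assumption of base 2 and of Cy5 over Cy3, with the sign of array 2 turned. The gene names rest on an ordering of the spots that was found by searching for agreement of duplicate spots. Means are over 2 arrays with the standard error (SE) of a limma fit, and a gene was called at an adjusted p (Benjamini-Hochberg over 4073 genes) under 0.05. Of all genes 741 rose, 18.2% of those tested, and 844 fell, 20.7%, while 112 and 140 of these changed at least 2-fold. The median over all genes was -0.03, and counts in gene lists below are read against these shares. With the replicate number as a block, the number being the orientation of the dyes, 1083 genes rose (26.6%) and 1316 fell (32.3%), and all 1585 genes called without the block were among them. In that fit the dye orientation itself was called for 2160 genes, and 1 array alone cannot separate it from the response. The arrays correlated at 0.716 across genes, which are not independent replicates, and 3362 genes lay on the same side of 0 on both. No called gene had its arrays on opposite sides of 0. Of 320 called genes that the naming rule picked, 157 kept the call when either array was left out, 124 lost it without array 1 and 129 lost it without array 2. RNA came from whole cultures, so a larger share of cells at one point of the cycle cannot be told apart from more RNA per cell, and no measure of cycle position was used.

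**Figure D1:**
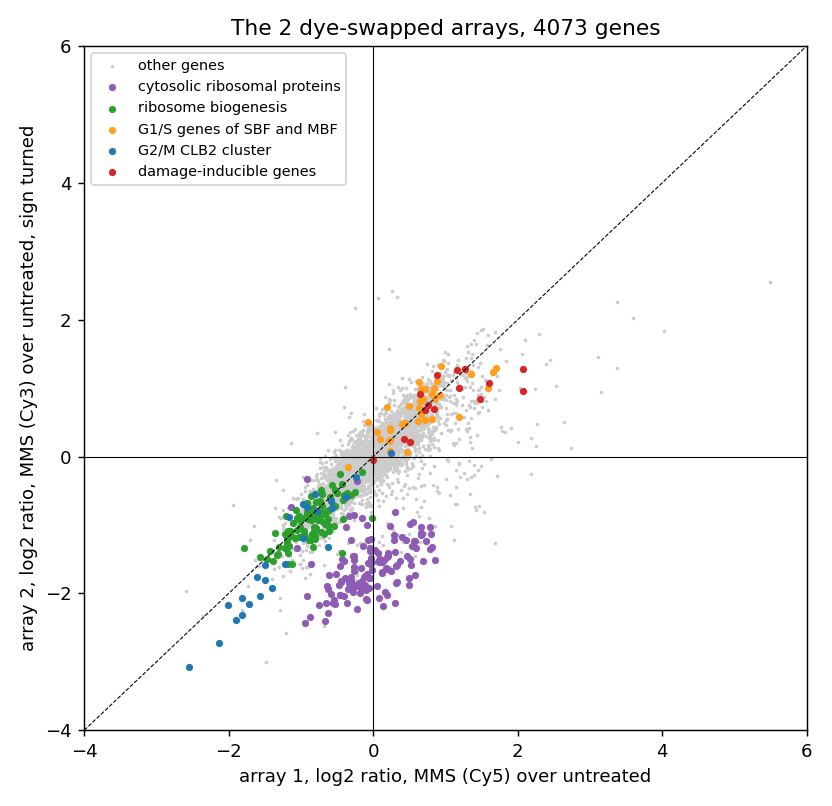
The log2 ratio of MMS over untreated for each of 4073 genes on array 1 (horizontal axis) and array 2 (vertical axis, sign turned), with 5 gene lists in colour and the line of equal values dashed. Damage-inducible and G1/S genes lie mostly in the upper right, and ribosome biogenesis and CLB2 cluster genes lie in the lower left near the dashed line. Cytosolic ribosomal protein genes sit apart, near 0 on array 1 (median -0.07) and well below 0 on array 2 (median -1.61).

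All 4 genes of ribonucleotide reductase, the enzyme that makes deoxyribonucleotides, rose. RNR3, the large subunit gene best known for its induction by damage, stood at 1.16 on array 1 and 1.27 on array 2 (mean 1.22 ± 0.08, adjusted p = 8.89e-06). RNR1, the main large subunit, stood at 1.27 on array 1 and 1.28 on array 2 (mean 1.27 ± 0.31, adjusted p = 0.00951), and its call was lost without array 1 (adjusted p = 0.0865) or array 2 (0.0933). The small subunit genes lay further apart between arrays: RNR4 stood at 1.60 on array 1 and 1.07 on array 2 (mean 1.34 ± 0.22, adjusted p = 0.00122). RNR2 stood at 2.08 on array 1 and 0.96 on array 2 (mean 1.52 ± 0.45, adjusted p = 0.0228 and 0.00072 with the block). Its call was lost without array 1. Both arrays put every one of these genes above the all-gene median, by similar amounts for RNR1 and RNR3 and with array 1 the higher for RNR2 and RNR4. HUG1, a small protein that binds and inhibits the enzyme, stood at 0.88 on array 1 and 1.19 on array 2 (mean 1.03 ± 0.14, adjusted p = 0.000389). DUN1, the kinase through which the checkpoint acts on the enzyme, stood at 0.72 on array 1 and 0.68 on array 2 (mean 0.70 ± 0.11, adjusted p = 0.00105). Of the other regulators, RFX1, the repressor of these genes and itself damage-inducible, rose (0.34 ± 0.09), and WTM2, a close relative of the nuclear anchor WTM1, fell (-0.50 ± 0.17). WTM1 (0.34) and the inhibitor gene SML1 (-0.52) did not pass.

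The list of damage-inducible genes, which holds the 4 reductase genes too, had 12 of 15 measured members up (8 without array 1 and 10 without array 2) and none down, with a median of 1.03. Without the reductase genes 8 of 11 rose, with a median of 0.77. MAG1, the DNA glycosylase that cuts out methylated adenine, stood at 1.18 on array 1 and 1.01 on array 2 (mean 1.09 ± 0.16, adjusted p = 0.000658), and the call held with either array left out. DDI1, a damage-inducible ubiquitin shuttle divergently placed from MAG1, stood at 1.48 on array 1 and 0.84 on array 2 (mean 1.16 ± 0.22, adjusted p = 0.00239). Both genes were high on each array. RAD54, the recombination motor protein, stood at 0.65 on array 1 and 0.91 on array 2 (mean 0.78 ± 0.17, adjusted p = 0.00494), and without array 2 the call was lost (adjusted p = 0.0994). RAD16 (0.77) and DIN7 (0.76) also rose. RAD16 recognises damage in nucleotide excision repair and DIN7 is a mitochondrial nuclease. DDR48, a stress gene, had the highest mean of the list, 1.68, with 2.08 on array 1 and 1.28 on array 2, and did not pass (adjusted p = 0.175); it passed with the block (adjusted p = 0.0143). PHR1, the photolyase, lay at -0.03.

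Checkpoint genes did not move together: 3 of 21 rose (3 without array 1 and 3 without array 2; 6 with the block) and 7 fell (2 without array 1 and 3 without array 2), with a median of -0.10. RAD53, the effector kinase, stood at 0.93 on array 1 and 1.33 on array 2 (mean 1.13 ± 0.20, adjusted p = 0.0015). TOF1 (0.44), a fork protein that helps relay the signal, rose as well, as did DUN1. RAD9, the adaptor that brings Rad53 to Mec1, stood at -0.78 on array 1 and -0.84 on array 2 (mean -0.81 ± 0.07, adjusted p = 3.23e-05), low on both arrays by nearly the same amount. Small decreases were called for MMS22, part of a ubiquitin ligase acting at stalled forks (-0.54), for PPH3 and PSY2, which form a phosphatase that switches Rad53 off (-0.50 and -0.47), and for MEC1 itself (-0.40). The members that rose include RAD53, DUN1 and TOF1, which the G1/S list also holds.

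**Figure D2:**
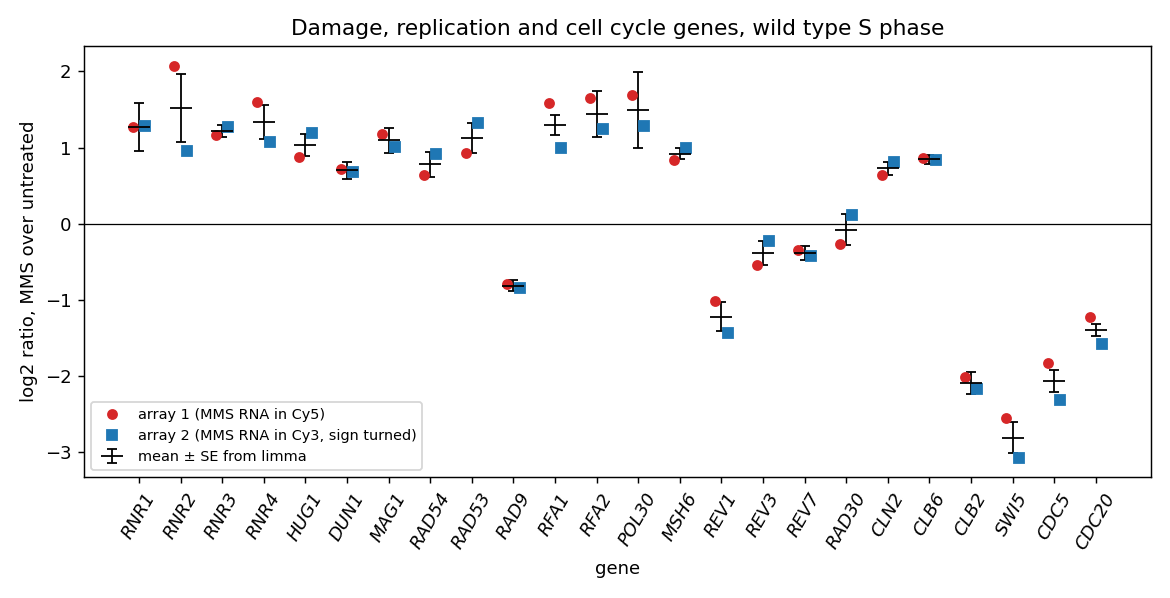
The log2 ratio of MMS over untreated on array 1 (circles) and array 2 (squares) for single genes of damage signalling, replication, repair and the cell cycle, with the mean and SE (bars) of the limma fit. The ribonucleotide reductase genes, HUG1, MAG1 and RAD53 lie above 0 on both arrays, REV1, RAD9 and the mitotic genes CLB2, SWI5, CDC5 and CDC20 below 0 on both, and RAD30 on either side of 0.

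Among repair pathways, base excision repair, the main route for methylated bases, had 6 of 12 up (2 without array 1 and 3 without array 2) and none down, with a median of 0.27. Besides MAG1, the highest was RAD27, the flap nuclease that also matures Okazaki fragments, at 0.89 on array 1 and 1.11 on array 2 (mean 1.00 ± 0.09, adjusted p = 3.3e-05). CDC9, the replicative DNA ligase, stood at 0.81 on array 1 and 0.55 on array 2 (mean 0.68 ± 0.17, adjusted p = 0.00992). These RAD27 and CDC9 values describe genes that belong to the G1/S list as well. TDP1 (0.52), OGG1 (0.43) and NTG1 (0.30) rose less; they encode an end-cleaning phosphodiesterase and glycosylases for oxidised bases. MGT1, which takes methyl groups directly off guanine, lay at -0.17, and the endonuclease APN1 at 0.12; neither passed. Nucleotide excision repair had 3 of 18 up, namely RAD16 (0.77), RAD2 (0.49) and RAD23 (0.40), and 5 down, among them the TFIIH genes TFB1 (-0.53), TFB4 (-0.45) and RAD3 (-0.41). These counts lie near the shares of all genes, 18.2% up and 20.7% down. The number up changed when an array was left out (1 without array 1 and 1 without array 2; 5 with the block), and so did the number down (3 without array 1 and 2 without array 2). In mismatch repair MSH6 (0.92) and PMS1 (0.62), which recognise mismatches and act on them, rose, and MSH1, the mitochondrial member, fell (-0.76 ± 0.17).

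Homologous recombination genes mostly did not pass: 5 of 24 measured members rose (3 without array 1 and 1 without array 2; 10 with the block) and 2 fell (2 without array 1 and 2 without array 2), with a median of 0.11. After RAD54 came TOP3, the topoisomerase that resolves joined strands, at 0.90 on array 1 and 0.57 on array 2 (mean 0.74 ± 0.09, adjusted p = 0.000248). RDH54 (0.43), RAD52 (0.31) and SHU1 (0.30) rose by small amounts. The helicase genes SGS1, partner of TOP3, and MPH1 fell (-0.49 and -0.44), so that TOP3 and SGS1, which act as a complex, were called in opposite directions. The genes of the end-resecting complex lay near 0 and did not pass: MRE11 (-0.02), RAD50 (0.08) and XRS2 (0.05).

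Translesion synthesis lets specialised polymerases copy past lesions, and none of the polymerase genes specific to it rose. Subunit genes of the list that are not specific to it, POL31 (0.44 ± 0.06, adjusted p = 0.000491) and POL32 (0.40 ± 0.08, adjusted p = 0.00371), rose. The POL32 call was lost without array 2. REV1, the deoxycytidyl transferase and scaffold of the pathway, stood at -1.01 on array 1 and -1.44 on array 2 (mean -1.22 ± 0.19, adjusted p = 0.000776), and the call held with either array left out. REV7, a subunit of polymerase zeta, stood at -0.34 on array 1 and -0.42 on array 2 (mean -0.38 ± 0.09, adjusted p = 0.00682), and leaving out array 1 or array 2 gave adjusted p = 0.0512 or 0.104. REV3, the catalytic subunit of polymerase zeta, stood at -0.54 on array 1 and -0.22 on array 2 (mean -0.38 ± 0.16, adjusted p = 0.0872) and passed with the block (adjusted p = 0.000416). REV1 was thus the lowest of these genes on each array, well below REV3 and REV7. RAD30, polymerase eta, stood at -0.27 on array 1 and 0.12 on array 2, on either side of 0 (adjusted p = 0.806). The ubiquitin arm that directs the choice of bypass differed: UBC13, which builds the ubiquitin chain on the sliding clamp, stood at 0.61 on array 1 and 0.99 on array 2 (mean 0.80 ± 0.16, adjusted p = 0.00358), while its partner MMS2 (0.57), RAD6 (-0.15), RAD18 (-0.12) and RAD5 (0.19) did not pass. POL30, the sliding clamp itself, stood at 1.70 on array 1 and 1.29 on array 2 (mean 1.49 ± 0.50, adjusted p = 0.0388 and 0.00441 with the block). Its call was lost without array 1 or array 2. The full list of 19 genes had 4 up (3 without array 1 and 1 without array 2; 8 with the block) and 2 down (1 without array 1 and 1 without array 2; 6 with the block), with a median of -0.08.

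Replication genes rose more often than the 18.2% of all genes, while the share that fell was near the 20.7% of all genes. Of 48 measured members 18 rose (11 without array 1 and 13 without array 2) and 9 fell (4 without array 1 and 5 without array 2; 16 with the block). RFA2 and RFA1, subunits of the single-strand binding protein RPA, were high on both arrays. RFA2 stood at 1.65 on array 1 and 1.24 on array 2 (mean 1.45 ± 0.30, adjusted p = 0.00424), and RFA1 at 1.59 on array 1 and 1.00 on array 2 (mean 1.29 ± 0.13, adjusted p = 7.17e-05). The subunits of polymerase alpha and primase POL12 (0.86), PRI2 (0.76) and POL1 (0.63), the helicase cofactor CDC45 (0.73), the fork linker CTF4 (0.64) and the polymerase epsilon subunits DPB2 (0.68) and POL2 (0.58) also rose. Those that fell included ORC1, the largest subunit of the origin recognition complex, at -0.94 on array 1 and -1.15 on array 2 (mean -1.05 ± 0.07, adjusted p = 1.03e-05), and MCM7, a subunit of the replicative helicase, at -0.92 on array 1 and -0.74 on array 2 (mean -0.83 ± 0.19, adjusted p = 0.00717). RRM3 (-0.72), TOP1 (-0.57), SLD3 (-0.51) and MCM2 (-0.41) fell as well. RRM3 helps forks past obstacles and SLD3 is needed to fire origins. RFA3, the remaining RPA subunit, had a mean of 0.67 and did not pass (adjusted p = 0.137).

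The G1/S genes of SBF and MBF, the wave that opens the cycle, had 29 of 42 measured members up (21 without array 1 and 21 without array 2) and none down. Their median was 0.66, with 0.64 on array 1 and 0.65 on array 2, and 40 of the 42 means lay above 0. CLB6, an S-phase cyclin, stood at 0.86 on array 1 and 0.83 on array 2 (mean 0.85 ± 0.06, adjusted p = 1.03e-05), and CLN2, a G1 cyclin, stood at 0.65 on array 1 and 0.82 on array 2 (mean 0.73 ± 0.09, adjusted p = 0.000153). CDC21, which makes thymidylate, reached 1.28 ± 0.14 and MCD1, the cleavable cohesin subunit, 0.91 ± 0.15. The cyclins CLB6 and CLN2 were therefore high on both arrays, while the related CLB5 (-0.25), CLN1 (-0.01) and PCL1 (0.21) did not pass. In the cohesion list 7 of 11 measured members rose (6 without array 1 and 5 without array 2) and 1 fell, the loader gene SCC2 (-0.21); ECO1 (0.91), PDS5 (0.86) and IRR1 (0.82), needed to establish or hold cohesion, were the highest after MCD1. Of 11 histone genes, which are normally transcribed in S phase, 1 rose, the linker histone gene HHO1 (0.37), a call lost with either array left out. Histone values hung on the array: the list's median was 0.72 on array 1 and -0.44 on array 2, so no direction is given for the core histones.

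The CLB2 cluster, transcribed from G2 into mitosis by Mcm1, Fkh2 and Ndd1, was the lowest group of genes measured here by its median (-1.40), and 24 of 25 measured members fell (18 without array 1 and 17 without array 2). SWI5, a transcription factor for late mitosis, stood at -2.55 on array 1 and -3.07 on array 2 (mean -2.81 ± 0.20, adjusted p = 1.29e-05), the largest decrease of any called gene. SPO12, an activator of mitotic exit, stood at -2.13 on array 1 and -2.72 on array 2 (mean -2.43 ± 0.15, adjusted p = 8.89e-06), and HOF1, a cytokinesis protein of the bud neck, at -1.89 on array 1 and -2.38 on array 2 (mean -2.14 ± 0.11, adjusted p = 4.66e-06). The mitotic cyclins followed: CLB2 stood at -2.01 on array 1 and -2.17 on array 2 (mean -2.09 ± 0.14, adjusted p = 1.03e-05) and CLB1 at -1.71 on array 1 and -2.15 on array 2 (mean -1.93 ± 0.13, adjusted p = 1.02e-05). Probes of this closely related pair may share signal. CDC5, the polo kinase, stood at -1.82 on array 1 and -2.31 on array 2 (mean -2.07 ± 0.15, adjusted p = 1.16e-05), and CDC20, which targets the anaphase inhibitor for destruction, at -1.22 on array 1 and -1.57 on array 2 (mean -1.40 ± 0.08, adjusted p = 8.07e-06). On each array every one of these 7 genes lay below -1, and array 2 was the lower for all of them. HST3, a deacetylase of the mark on newly deposited histone H3, stood at -1.82 on array 1 and -2.07 on array 2 (mean -1.95 ± 0.15, adjusted p = 1.56e-05). SWE1, the kinase that restrains mitosis, was the single member above 0 and did not pass (0.24 on array 1 and 0.05 on array 2, adjusted p = 0.54). The regulators of the cluster differed: FKH2 (-1.09) and FKH1 (-0.78) fell, and NDD1 (-0.37) did not pass.

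Other mitotic groups had medians nearer 0. Among Hcm1 and spindle genes, expressed from S phase to G2, 13 of 32 measured members fell (8 without array 1 and 8 without array 2) and 2 rose, with a median of -0.25. ASE1 (-1.03), NUF2 (-1.01), VIK1 (-0.71) and DSN1 (-0.70), encoding proteins of the spindle midzone, the kinetochore and a spindle motor complex, were among the lowest, against TUB4 (0.70), the gamma-tubulin gene. Of genes of the spindle checkpoint and mitotic exit 9 of 16 measured members fell (4 without array 1 and 5 without array 2), led by NET1 (-0.80), LTE1 (-0.80) and TEM1 (-0.79), regulators that hold or release the phosphatase Cdc14. Septin and cytokinesis genes had 10 of 23 down (8 without array 1 and 8 without array 2); beyond HOF1 these were led by BUD4 (-1.80 ± 0.12), MYO1 (-1.68 ± 0.07), CHS2 (-1.66 ± 0.23) and IQG1 (-1.54 ± 0.10), which select the bud site, contract the ring or build the septum. Of these, HOF1, BUD4 and MYO1 also belong to the CLB2 cluster, so their decreases are not separate from those above. The septins CDC3 (-0.24), CDC10 (0.19), CDC11 (-0.23) and CDC12 (-0.04) did not pass, and AXL2 (0.75) and GIN4 (0.61) rose. In the M/G1 list 9 of 28 measured members fell (5 without array 1 and 5 without array 2), among them ASH1 (-0.87) and DSE4 (-0.68), and 2 rose: RME1, a repressor of meiosis, at 0.94 on array 1 and 1.13 on array 2 (mean 1.04 ± 0.21, adjusted p = 0.00395), and PIR3 (0.70). Genes of the pheromone response, which all these cultures had been exposed to, had 1 of 35 up (0 without array 1 and 0 without array 2; 2 with the block) and 6 down (3 without array 1 and 4 without array 2), with a median of 0.04; FAR1, which arrests the cycle, fell (-0.77 ± 0.17), and FUS1 (0.28), AGA1 (0.06) and STE2 (-0.41) did not pass.

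**Figure D3:**
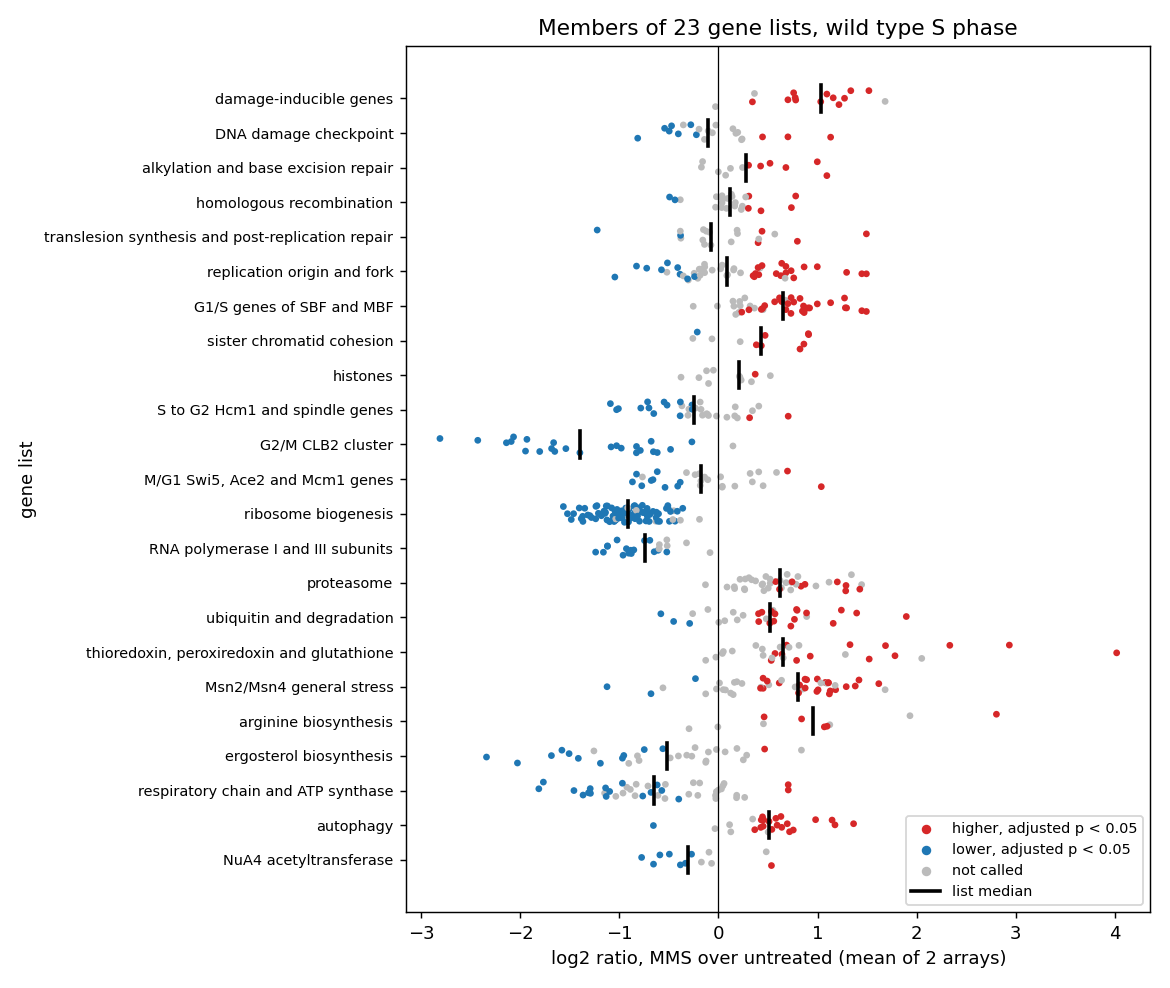
The mean log2 ratio of MMS over untreated (horizontal axis, 2 arrays) for each measured member of the gene lists on the vertical axis, coloured by call at an adjusted p under 0.05, with a black bar at the list median. The CLB2 cluster (median -1.40) and ribosome biogenesis (median -0.92) lie left of 0 almost whole, damage-inducible genes (median 1.03) and G1/S genes (median 0.66) lie mostly to the right, and replication and checkpoint genes spread to both sides.

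Genes that build ribosomes fell. Of 95 measured ribosome biogenesis genes 86 fell (68 without array 1 and 57 without array 2), none rose, and none had a mean above 0; the median was -0.92. MAK21, a factor for export of the large subunit, stood at -1.79 on array 1 and -1.34 on array 2 (mean -1.56 ± 0.42, adjusted p = 0.0155). DRS1, a helicase of large subunit maturation, stood at -1.57 on array 1 and -1.47 on array 2 (mean -1.52 ± 0.20, adjusted p = 0.000291), and NOP4 at -1.47 on array 1 and -1.50 on array 2 (mean -1.48 ± 0.13, adjusted p = 3.33e-05). NOG2 (-1.46), ENP2 (-1.40) and DBP10 (-1.38) followed. The decrease was of like size on both arrays, with list medians of -0.84 and -0.96. RNA polymerases I and III, which transcribe ribosomal and transfer RNA, had 16 of 23 subunit genes down (12 without array 1 and 7 without array 2) and none up, with a median of -0.75. RPA190 and RPA135, the catalytic subunits of polymerase I, stood at -1.02 ± 0.17 and -0.88 ± 0.26, and RPO31, the largest of polymerase III, at -0.61 ± 0.12. RPB5, a subunit shared by all nuclear polymerases, was the lowest (-1.20 on array 1 and -1.28 on array 2, mean -1.24 ± 0.25, adjusted p = 0.00336).

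Cytosolic ribosomal protein genes could not be read with the same confidence. Their median of -0.82 was close to that of ribosome biogenesis, yet 3 of 135 members were called (0 without array 1 and 1 without array 2; 103 with the block). The median was -0.07 on array 1 and -1.61 on array 2. Across all 16 arrays these genes carried a dye difference (Cy5 minus Cy3 orientation) with a median of 2.05, against 0.00 over all genes. RPL3, for example, stood at 0.66 on array 1 and -1.04 on array 2, and RPS6A at -0.87 on array 1 and -2.35 on array 2; neither passed. The part of the dye in these values was not tested beyond the block. Translation factors had 8 of 39 down (2 without array 1 and 1 without array 2; 17 with the block), with a median of -0.44. Without the block that share was near the 20.7% of all genes. ANB1, a form of the hypusine-bearing factor eIF5A, fell (-1.65 on array 1 and -1.02 on array 2, mean -1.34 ± 0.39, adjusted p = 0.0225), as did the scaffold genes TIF4631 (-0.70) and TIF4632 (-0.53) and the release factor gene SUP35 (-0.55). Mitochondrial ribosomal proteins, whose median was -0.06, had 5 of 57 up (2 without array 1 and 1 without array 2; 8 with the block) and 9 down (1 without array 1 and 2 without array 2; 14 with the block).

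Thiol-based oxidant defence held 3 of the 5 largest increases. AHP1, a peroxiredoxin that reduces organic peroxides, stood at 5.49 on array 1 and 2.55 on array 2 (mean 4.02 ± 1.11, adjusted p = 0.0167). TRX2, the thioredoxin that feeds it, stood at 4.03 on array 1 and 1.84 on array 2 (mean 2.93 ± 0.95, adjusted p = 0.0336), and TSA1, the main peroxiredoxin, at 3.37 on array 1 and 1.30 on array 2 (mean 2.33 ± 0.79, adjusted p = 0.0402). Array 1 exceeded array 2 by 1.5 or more for 5 genes called as rising: these 3, ARG1 (2.80) and LYS20 (2.28). The calls of TRX2 and TSA1 were lost with either array left out and that of AHP1 without array 1. With the block the adjusted p was 5.24e-05 for AHP1, 0.000189 for TRX2 and 3.43e-05 for TSA1. Further members lay closer together on the arrays: GPX2, a glutathione peroxidase, stood at 2.06 on array 1 and 1.50 on array 2 (mean 1.78 ± 0.40, adjusted p = 0.00648). ECM4, a glutathione transferase, stood at 1.59 on array 1 and 1.78 on array 2 (mean 1.69 ± 0.16, adjusted p = 4.84e-05), and TRR1, the thioredoxin reductase, at 2.04 on array 1 and 1.00 on array 2 (mean 1.52 ± 0.49, adjusted p = 0.033). In all 13 of 29 measured members rose (6 without array 1 and 10 without array 2; 21 with the block), none fell, and the median was 0.65; the catalase genes CTT1 (-0.13) and CTA1 (0.04) did not pass. Of other oxidoreductases and exporters linked to Yap1, 15 of 24 measured members rose (10 without array 1 and 10 without array 2), led after ECM4 by AAD6 (1.66), FRM2 (1.66), ZTA1 (1.46) and GRE3 (1.38), while the drug exporter gene PDR5 fell (-1.22 on array 1 and -1.28 on array 2, mean -1.25 ± 0.17, adjusted p = 0.000438).

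General stress genes of Msn2 and Msn4 had 23 of 47 up (20 without array 1 and 16 without array 2) and 3 down, with a median of 0.81. PRB1, a vacuolar protease, stood at 1.43 on array 1 and 1.80 on array 2 (mean 1.62 ± 0.13, adjusted p = 2.05e-05), and TFS1, an inhibitor of vacuolar carboxypeptidase, at 1.47 on array 1 and 1.36 on array 2 (mean 1.42 ± 0.14, adjusted p = 6.23e-05). The trehalose genes TSL1 (1.18), TPS1 (1.11) and NTH1 (1.00) rose, covering both synthesis and breakdown of that sugar. The 3 that fell were GAC1 (-1.12), CYC7 (-0.68) and GSY1 (-0.23). GAC1 is a subunit of a phosphatase acting on glycogen synthase, which GSY1 encodes. Chaperone genes had 7 of 33 up (13 with the block), near the 18.2% of all genes, among them HSP42 (1.13), HSP26 (1.12) and HSP78 (1.08). The 2 that fell (5 with the block) were SSZ1 (-0.65) and CPR7 (-0.47). HSP12 (0.16), a common marker of this response, did not pass.

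Several protein turnover genes rose. UBI4, the stress polyubiquitin gene, stood at 2.09 on array 1 and 1.70 on array 2 (mean 1.90 ± 0.55, adjusted p = 0.0212), and lost its call without array 1 (adjusted p = 0.186) or array 2 (0.111). UFD1 and NPL4, partners of the Cdc48 segregase, were high on both arrays. UFD1 stood at 1.35 on array 1 and 1.44 on array 2 (mean 1.39 ± 0.18, adjusted p = 0.000272), and NPL4 at 1.16 on array 1 and 1.32 on array 2 (mean 1.24 ± 0.12, adjusted p = 5.13e-05). In the ubiquitin list 16 of 29 measured members rose (5 without array 1 and 9 without array 2) and 3 fell, UBP3 (-0.58), BUL2 (-0.45) and UBC11 (-0.29). Proteasome genes had 9 of 39 up, against 18.2% of all genes (17 with the block, against 26.6%), although 38 means lay above 0 and the median was 0.62. Called members included UMP1 (1.43), PRE4 (1.29), PRE8 (1.28) and ECM29 (1.20). UMP1 assembles the core particle. Fewer members of the list passed with either array left out. The calls of UMP1, PRE4 and PRE8 were then lost, and that of ECM29 was lost without array 2. RPN4, the transcription factor of the proteasome genes, lay at 0.26 and did not pass. Of autophagy genes 19 of 25 measured members rose (15 without array 1 and 11 without array 2), with a median of 0.51. ATG1, the kinase that starts the process, stood at 1.29 on array 1 and 1.44 on array 2 (mean 1.36 ± 0.17, adjusted p = 0.00019), and ATG8, the membrane-bound ubiquitin-like protein, at 1.15 on array 1 and 1.14 on array 2 (mean 1.15 ± 0.15, adjusted p = 0.000343). ATG7, which activates Atg8, reached 1.18 ± 0.12, and ATG10 (-0.66) was the one member that fell. Of endoplasmic reticulum folding genes 7 of 29 measured members rose, against 18.2% of all genes (15 with the block, against 26.6%). ERO1, which drives disulphide formation, stood at 1.83 on array 1 and 1.40 on array 2 (mean 1.62 ± 0.44, adjusted p = 0.0152). Fewer members of the list passed with either array left out, and the call of ERO1 was then lost.

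Some genes of amino acid synthesis rose. ARG1, argininosuccinate synthetase, stood at 3.59 on array 1 and 2.02 on array 2 (mean 2.80 ± 0.76, adjusted p = 0.0158), and 5 of 10 measured members rose (1 without array 1 and 2 without array 2) in the arginine list, whose median was 0.95. LYS20, the first step of lysine synthesis, stood at 3.11 on array 1 and 1.46 on array 2 (mean 2.28 ± 0.73, adjusted p = 0.0326). LYS1, the last step, stood at 2.29 on array 1 and 1.80 on array 2 (mean 2.05 ± 0.46, adjusted p = 0.00603). HOM3, aspartate kinase, stood at 2.40 on array 1 and 1.36 on array 2 (mean 1.88 ± 0.62, adjusted p = 0.038). With the block the adjusted p was 9.27e-05 for ARG1, 0.00141 for LYS20, 0.000901 for LYS1 and 0.000965 for HOM3. Array 1 was the higher for all 4 genes, and without it the adjusted p was 0.232 for ARG1, 0.0939 for LYS1, 0.367 for LYS20 and 0.34 for HOM3. LYS20 (0.0662) and HOM3 (0.099) also lost the call, by adjusted p, without array 2, while ARG1 (0.0496) and LYS1 (0.0459) kept it. Over the other pathways 11 of 52 genes rose, near the 18.2% of all genes (29 with the block, against 26.6%). Here 4 fell, GLT1 (-1.03), GLN1 (-0.94), PRO1 (-0.44) and HIS6 (-0.41), of which GLT1 and GLN1 assimilate ammonium. GCN4, the activator of these genes, had a mean of 0.96 and did not pass. In sulfur metabolism 13 of 35 measured members rose (7 without array 1 and 7 without array 2) and 4 fell. SSU1, the sulfite exporter, stood at 3.38 on array 1 and 2.26 on array 2 (mean 2.82 ± 0.70, adjusted p = 0.0103), and lost its call without array 1 (adjusted p = 0.156). STR3, which forms homocysteine from cystathionine, stood at 1.51 on array 1 and 1.87 on array 2 (mean 1.69 ± 0.23, adjusted p = 0.000357), and the sulfate transporter gene SUL1 at 1.05 on array 1 and 1.18 on array 2 (mean 1.11 ± 0.12, adjusted p = 7.91e-05). SAM2, which makes S-adenosylmethionine, fell (-0.95 on array 1 and -1.24 on array 2, mean -1.10 ± 0.23, adjusted p = 0.00479).

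In several metabolic groups more genes fell than rose. In ergosterol synthesis 11 of 30 measured members fell (6 without array 1 and 3 without array 2; 18 with the block) and 1 rose, with a median of -0.52. ERG11, the sterol demethylase, stood at -2.36 on array 1 and -2.32 on array 2 (mean -2.34 ± 0.50, adjusted p = 0.00501), and ERG3, the desaturase, at -1.81 on array 1 and -2.24 on array 2 (mean -2.03 ± 0.53, adjusted p = 0.0132); leaving out either array ended both calls. Acid phosphatase genes, whose products free phosphate outside the cell, fell too. PHO3 stood at -1.92 on array 1 and -2.37 on array 2 (mean -2.15 ± 0.26, adjusted p = 0.000186), PHO5 at -1.21 on array 1 and -2.58 on array 2 (mean -1.90 ± 0.43, adjusted p = 0.0063) and PHO11 at -1.49 on array 1 and -3.00 on array 2 (mean -2.24 ± 0.66, adjusted p = 0.0225). These genes are near-copies of each other, so their probes may share signal, and without array 2 PHO5 (adjusted p = 0.166) and PHO11 (adjusted p = 0.306) lost their calls. In the PHO list 8 of 26 measured members fell (7 without array 1 and 3 without array 2), and the high-affinity phosphate transporter PHO84 (-0.42) did not pass. Respiratory genes had 17 of 44 down (7 without array 1 and 4 without array 2) and 2 up, with a median of -0.65. NDE1, a mitochondrial NADH dehydrogenase, stood at -1.73 on array 1 and -1.89 on array 2 (mean -1.81 ± 0.32, adjusted p = 0.00156), and CYC1, cytochrome c, at -1.29 on array 1 and -2.24 on array 2 (mean -1.77 ± 0.49, adjusted p = 0.0177), while the paralog NDE2 (0.70) rose. HAP4, the activator subunit of this pathway, fell (-1.31 on array 1 and -0.89 on array 2, mean -1.10 ± 0.32, adjusted p = 0.0218). Genes of the tricarboxylic acid cycle had 5 of 22 up, against 18.2% of all genes, and none down. PYC1, pyruvate carboxylase, stood at 1.26 on array 1 and 1.02 on array 2 (mean 1.14 ± 0.17, adjusted p = 0.000641). PTR2, the di- and tripeptide transporter, stood at -2.59 on array 1 and -1.96 on array 2 (mean -2.28 ± 0.27, adjusted p = 0.000175), and the call held with either array left out.

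Iron genes changed in both directions, and 11 of 35 rose (6 without array 1 and 7 without array 2) and 6 fell (3 without array 1 and 2 without array 2), with a median of 0.31. The share that rose was above the 18.2% of all genes, and the share that fell was not above their 20.7%. TIS11 (also CTH2), which destroys messages of iron-using proteins, stood at 1.42 on array 1 and 1.64 on array 2 (mean 1.53 ± 0.09, adjusted p = 8.89e-06). The cell-wall siderophore binders FIT2 (1.36) and FIT3 (1.00), the siderophore transporters ARN2 (1.21), ENB1 (0.90) and ARN1 (0.76) and the mitochondrial carrier gene MRS4 (1.10) rose. The zinc transporter gene ZRT1, which the list also holds, fell (-1.41 on array 1 and -1.78 on array 2, mean -1.60 ± 0.15, adjusted p = 4.23e-05), as did HMX1, heme oxygenase (-0.86 on array 1 and -1.18 on array 2, mean -1.02 ± 0.19, adjusted p = 0.00229), and FRE4, a siderophore reductase (-0.96 on array 1 and -1.01 on array 2, mean -0.99 ± 0.11, adjusted p = 0.000133). FET3 and FTR1, the high-affinity iron importer, had means of -0.70 and -0.32 and did not pass.

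NuA4 is the acetyltransferase that the mutant strain of the series alters, and its genes were examined in the wild type. ESA1, the catalytic subunit, stood at -0.38 on array 1 and -0.39 on array 2 (mean -0.38 ± 0.07, adjusted p = 0.00222), nearly equal on both arrays. EPL1, which ties Esa1 to the complex, stood at -0.62 on array 1 and -0.93 on array 2 (mean -0.78 ± 0.20, adjusted p = 0.0135), and TRA1, the large subunit that activators contact, at -0.76 on array 1 and -0.55 on array 2 (mean -0.66 ± 0.14, adjusted p = 0.00452). Of 12 measured subunit genes 7 fell (2 without array 1 and 3 without array 2) and 1 rose, EAF3 (0.53). The response of 7 of the 12 was lower in S phase than in G1, where the list's median was 0.32, and that of none was higher; for ESA1 the difference was -0.74 ± 0.10, adjusted p = 0.000452.

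The S-phase response was tested minus that of wild-type cells treated in G1, which came from separate RNA. The S-phase cultures had 2 h of alpha factor against 1 h for G1, and were then washed into fresh medium. Phase cannot be told apart from this handling. The response was higher in S phase for 570 genes (14% of those tested) and lower for 743 (18.2%). The sum of 1313 became 846 without array 1, 835 without array 2 and 2101 with the block. All 4 ribonucleotide reductase genes had a higher log2 ratio in S phase than in G1. RNR1 fell in G1, at -1.73 and -0.68 on the G1 arrays (mean -1.20, adjusted p = 0.013), a difference of 2.48 ± 0.44, adjusted p = 0.00215. RNR3 fell slightly in G1 (mean -0.23, adjusted p = 0.0395) and differed by 1.44 ± 0.11, adjusted p = 3.7e-05. RNR2 (-0.51) and RNR4 (0.01) were not called in G1. HUG1 also differed (1.00 ± 0.20, adjusted p = 0.00421), and 8 of the 15 damage-inducible genes were higher in S phase. DUN1 and MAG1 had means of 0.68 and 1.08 in G1, and their differences of 0.02 ± 0.16, adjusted p = 0.95 and 0.02 ± 0.23, adjusted p = 0.97 did not pass. Of the G1/S genes 21 of 42 were higher in S phase and none lower, with list medians of 0.66 in S phase and 0.00 in G1. CLN2, which fell in G1 (-0.99), differed by 1.72 ± 0.12, adjusted p = 3.57e-05. Of the CLB2 cluster 19 of 25 were lower in S phase and none higher, with medians of -1.40 and 0.13. SPO12 stood at 1.18 and 1.22 and SWI5 at 0.75 (mean) in G1, so that the differences were -3.63 ± 0.21, adjusted p = 2.17e-05 and -3.56 ± 0.29, adjusted p = 4.3e-05. Ribosome biogenesis was lower in S phase for 49 of 95 genes and higher for 2, with a G1 median of -0.31. Of 39 proteasome genes 0 were higher and 1 lower in S phase, at a G1 median of 1.01. Of the 29 thiol defence genes 7 were higher in S phase and 1 lower; AHP1, at 2.51 in G1, did not pass (1.51 ± 1.56, adjusted p = 0.526).

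**Figure D4:**
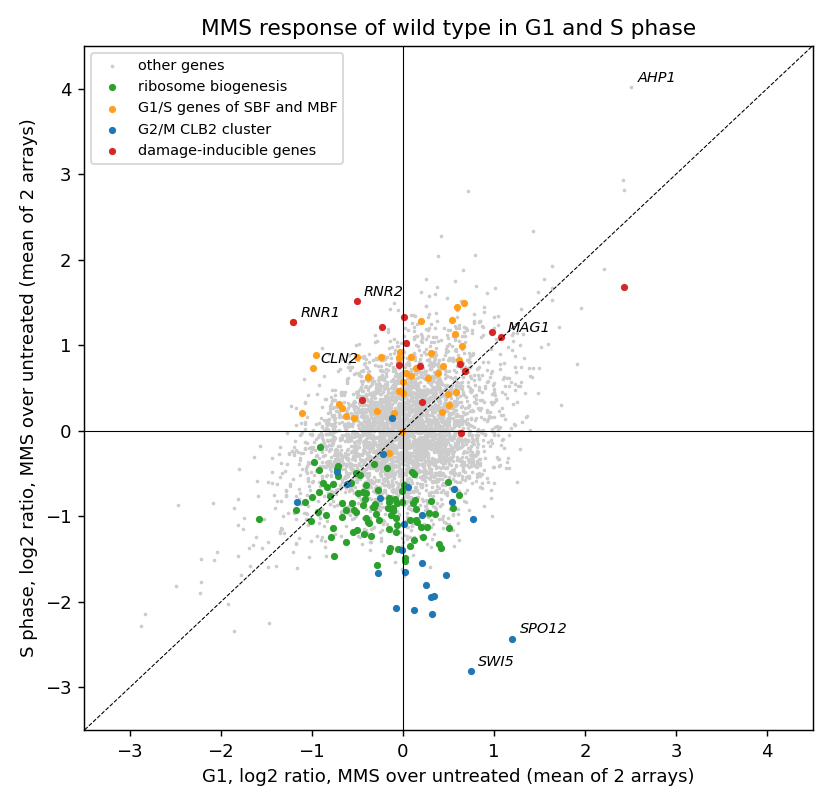
The mean log2 ratio of MMS over untreated in wild-type G1 cells (horizontal axis) and wild-type S-phase cells (vertical axis), 2 arrays each, for 4073 genes with 4 gene lists in colour and the line of equal response dashed. RNR1 and RNR2 lie left of 0 in G1 and well above 0 in S phase, the CLB2 cluster genes SPO12 and SWI5 lie at the lower right, and MAG1 lies on the dashed line.

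The strain difference was asked with all 4 S-phase comparisons, taking the wild-type response minus that of esa1-L254P. The difference was formed from the MMS comparisons and from the strain comparisons, and both estimates, which use the same 4 kinds of RNA, were averaged. The 2 arrays of esa1-L254P over wild type with MMS, which enter this average, had the lowest agreement of duplicate spots in the series. Their correlations in held-out genes were 0.721 and 0.677. It was called for 919 genes (22.6%), higher in wild type for 366 and lower for 553; with the block 1817 were called, without array 2 of the wild-type comparison 567, and from the MMS comparisons alone 219. Of the 4 reductase genes none was called, and of 25 CLB2 cluster genes 1 was higher and 3 were lower in wild type. RNR3 had a mean of 0.99 in the mutant, and its difference was 0.19 ± 0.08, adjusted p = 0.112. Differences were 0.16 ± 0.31 for RNR1, 0.81 ± 0.45 for RNR2 and 0.44 ± 0.22 for RNR4 (adjusted p = 0.766, 0.239 and 0.201). An equal response of these genes in both strains was therefore not shown. CLB2 had -1.89 in the mutant, with a difference of -0.15 ± 0.14, adjusted p = 0.535. Ribosome biogenesis had 27 of 95 genes lower in wild type and 2 higher, at a mutant median of -0.71 against -0.92. Iron genes had 11 of 35 higher in wild type and 1 lower; FIT3, at 0.20 in the mutant, differed by 0.92 ± 0.10, adjusted p = 0.000624. Of the G1/S genes 5 were higher in wild type and 1 lower, and CLN2, at -0.07 in the mutant, differed by 0.94 ± 0.09, adjusted p = 0.000342.

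A few values rest on 1 spot. For ENT1, an endocytic adaptor, the arrays gave 0.33 on array 1 and 2.34 on array 2, and its 2 spots on array 2 lay 4.55 apart. KIN28, a kinase of TFIIH, had 0.26 on array 1 and 2.42 on array 2, with spots 4.21 apart on array 2, and ABM1 had 0.06 on array 1 and 2.32 on array 2, with spots 4.64 apart. These 3 genes were called as rising, were picked after their values were seen, and were left out when genes with spots over 0.5 apart were removed, after which 701 genes rose and 826 fell. GPI2, an enzyme of membrane anchor synthesis, had -0.25 on array 1 and 2.18 on array 2, with spots 4.52 apart on array 2, and was not called in S phase (adjusted p = 0.0902).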

How the data were processed

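Arrays with 2 colours of 15744 spots held ratios of polyA RNA, labelled after oligo-dT priming. The authors deposited log ratios per spot, taken here as log2; R 3.1.1 and limma 3.0 are named per the submitters' processing notes, while the base, the ratio's direction, background correction and within-array normalization are not given in the sources used here. Base 2 and Cy5 over Cy3 are assumptions. Array medians lay between -0.00582 and 0.00478, and no further scaling was applied.

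The order of the value table differs from the numbering of the platform annotation: matched by number, a gene's duplicate spots had correlations of -0.0328 to 0.0274. Of 11330 systematic orderings, scored on 2035 genes, the chosen one scored 1.13 and the next 0.0331 (mean product of standardized, capped values). In the 2035 genes held out, duplicate spots then correlated at 0.677 to 0.948. Spots of a gene were averaged into 4073 genes; 7592 unnamed spots were not used. Symbols follow RefSeq's R64 table where it holds them (3940 current, 125 updated, 8 kept).

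The second array of each comparison was multiplied by -1. Turned this way, the arrays of this comparison correlated at 0.716. A limma fit (version 3.58.1, R 4.3.3) was made to all 16 arrays, each comparison with its own coefficient, leaving 8 residual degrees of freedom (prior 1.70), so that the comparisons share 1 spread per gene; p-values were adjusted after Benjamini-Hochberg over 4073 genes. Differences between phases or strains were contrasts of the same fit. Code was tested on simulated data. Arrays with the same replicate number deviated together (correlations of 0.619 to 0.892 over 28 pairs of comparisons, the number being the dye orientation), so the number was tried as a block (7 residual degrees of freedom). Other alternatives were the arrays included, centring, equal spread, discordant spots and leaving out each array.

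The members and gene lists were chosen with earlier results of these data known, so no list is independent evidence. Named by rule were RNR1 to RNR4, HUG1, DUN1, MAG1, RAD54, REV1, REV3, REV7, RAD30 and POL30, up to 12 genes each way by size with both arrays on the same side, up to 6 called members of each list and 3 against its median, and up to 10 genes each way per difference test. Other genes were added after their values were seen, as examples within a list. One further gene of the rule is not reported here. Sequences and promoters were not used here.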

Additional observations from a re-analysis of the deposited data

Results flagged for a closer look

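The response to MMS in wild-type S phase differed from that in wild-type G1 for 1313 genes in the limma test of the difference itself, at an adjusted p under 0.05. The differences below are log2, S phase minus G1. Where S phase was higher, the ribonucleotide reductase genes led: RNR1 (2.48), which fell in G1 (-1.20), and RNR2 (2.02). SVS1 and CLN2, both G1/S genes, followed (1.84 and 1.72). Both fell in G1 (-0.95 and -0.99) and rose in S phase (0.89 and 0.73). Metabolic genes made up the rest: GPD2 (1.70), CYC3 (1.69), PUT4 (1.61), SNO1 (1.60) and BNA2 (1.56), for glycerol synthesis, heme attachment to cytochrome c, proline uptake, pyridoxine and nicotinate synthesis. GPD2 stood at 0.21 on array 1 and 1.58 on array 2 in S phase, and without array 2 its difference was 1.02 and its call in S phase was lost (adjusted p = 0.469). In G1 both GPD2 (-0.81) and CYC3 (-1.08) fell, against 0.90 and 0.61 in S phase. PUT4 fell in both phases, more in G1 (-2.47) than in S phase (-0.87). GPI2 also stood among them (1.85), with spots 4.52 apart on array 2 and a difference of 0.64 without that array. Where S phase was lower, all but one of the genes by size belong to the CLB2 cluster: SPO12 (-3.63), SWI5 (-3.56), HOF1 (-2.46), CLB1 (-2.27), HST3 (-2.25), CLB2 (-2.22), MYO1 (-2.16), BUD4 (-2.06) and CDC5 (-1.99). The exception was VMA10, a subunit of the vacuolar proton pump (-1.97).

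The wild-type response differed from that of esa1-L254P in S phase for 919 genes by the same kind of test. As log2 differences, wild type minus esa1-L254P, the higher values were SNO1 (1.26), GPD2 (1.16), RGM1 (1.06), PIN3 (1.04), FRE4 (1.01), TRM5 (1.01), BNA2 (1.00), CLN2 (0.94), SUR7 (0.94) and FIT3 (0.92). RGM1, a transcriptional repressor, and TRM5, a transfer RNA methyltransferase, had means of 0.01 and -0.03 in wild type and -1.02 and -0.96 in the mutant. The lower values were VMA10 (-1.37), HMRA1 (-1.15), YSY6 (-1.10), AI5_ALPHA (-1.07), GSY1 (-1.01), SRP21 (-1.01), NRG2 (-0.97), SLF1 (-0.97), RCK1 (-0.97) and FYV6 (-0.90). HMRA1 is a silent mating-type gene whose sequence is also held at the mating-type locus, and AI5_ALPHA is encoded in a mitochondrial intron. How well the oligo-dT priming captured mitochondrial transcripts was not tested. VMA10 had -1.02 and -0.96 on the wild-type arrays and a mean of 0.23 in the mutant.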

How the results depend on the processing

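Settings that left each count within 1.5 times were the 8 MMS arrays alone (700 genes up, 755 down, 1144 different from G1), the 2 arrays alone (588 and 630), array medians subtracted (779, 781 and 1313) and genes with discordant spots left out (701 and 826). With the replicate number as a block 1083 genes rose, 1316 fell, 2101 differed from G1 and 1817 differed from esa1-L254P; the block changed no other call among the genes named by the rule than those of REV3 and GPI2 (stronger, adjusted p = 0.0363 for GPI2). With the spread of the arrays made equal 458 rose, 504 fell and 721 differed from G1; the cause was not tested. Leaving out 1 of the 2 arrays leaves this comparison with 1: 334 to 384 genes then rose, 418 to 464 fell, 835 to 846 differed from G1 and 567 to 643 differed from esa1-L254P. From the difference of the MMS comparisons alone, which use fewer arrays, 219 differed from esa1-L254P. The block leaves each mean over 2 arrays as it is, and no called gene had its arrays on opposite sides of 0. These settings therefore could not change the direction of a called gene. Having 2 arrays per comparison limits the precision, and the arrays give no depth.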

Other observations

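Of the 252 called genes that changed at least 2-fold, 88 were in none of the gene lists, 44 up and 44 down; apart from BOP2, SNO1 and BNA2 those named here were picked after their values were seen. BOP2, a gene without a settled role, stood at 1.68 on array 1 and 1.83 on array 2 (mean 1.75 ± 0.11, adjusted p = 8.89e-06), the highest of them, and its call held with either array left out. PCL5, a cyclin that marks Gcn4 for destruction, stood at 1.57 on array 1 and 1.62 on array 2 (mean 1.60 ± 0.21, adjusted p = 0.000279). Pyridoxine synthesis was represented by SNO1 at 1.35 on array 1 and 1.65 on array 2 (mean 1.50 ± 0.12, adjusted p = 1.88e-05), and of 6 measured SNZ and SNO genes 3 rose and none fell. Of 6 measured BNA genes of nicotinate synthesis 3 rose, with BNA2, the first enzyme of the pathway from tryptophan, at 1.36 on array 1 and 1.49 on array 2 (mean 1.43 ± 0.09, adjusted p = 8.89e-06), and BNA4 fell (-0.87 ± 0.09). Among the decreases SRP40, a nucleolar chaperone, stood at -1.61 on array 1 and -1.60 on array 2 (mean -1.61 ± 0.08, adjusted p = 3.88e-06), IFH1, a coactivator of ribosomal protein genes, at -1.21 on array 1 and -1.28 on array 2 (mean -1.25 ± 0.09, adjusted p = 1.41e-05), and REA1, which strips factors from the maturing large subunit, at -1.46 on array 1 and -1.36 on array 2 (mean -1.41 ± 0.11, adjusted p = 1.72e-05).

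Hexose transporter and sensor genes had 3 of 22 up (3 without array 1 and 2 without array 2), HXT10 (1.00), HXT5 (0.86) and HXT9 (0.84), and 7 down (4 without array 1 and 4 without array 2), among them STD1 (-0.85), HXT4 (-0.84) and MTH1 (-0.76); HXT9 is a near-copy of other family members. Glycolysis and fermentation genes had 5 of 34 up (4 without array 1 and 1 without array 2), led by the minor isozymes PYK2 (1.03) and GPM2 (0.95), and 2 down (2 without array 1 and 2 without array 2; 4 with the block), the activators GCR1 (-0.85) and GCR2 (-0.45). Nucleotide synthesis had 5 of 32 up (3 without array 1 and 4 without array 2; 8 with the block) and 3 down (2 without array 1 and 2 without array 2; 5 with the block). CDC21 was the highest (1.28 ± 0.14), and URA7, CTP synthase, fell (-1.12 on array 1 and -1.52 on array 2, mean -1.32 ± 0.22, adjusted p = 0.00116). Permease genes had 6 of 29 up (4 without array 1 and 3 without array 2; 10 with the block) and 6 down (4 without array 1 and 5 without array 2). Cell wall genes had 5 of 38 up (3 without array 1 and 2 without array 2), led by PMT3 (1.05), a protein mannosyltransferase, and 3 down (2 without array 1 and 2 without array 2; 5 with the block), led by SUN4 (-1.20), a wall protein of septation. Lipid genes had 5 of 34 up (2 without array 1 and 2 without array 2; 8 with the block), with CHO1 (0.89), EPT1 (0.83) and INO1 (0.80) for phospholipids, and 6 down (2 without array 1 and 1 without array 2; 11 with the block), with ACC1 (-0.60) and FAS2 (-0.44) for fatty acids. Meiosis genes had 9 of 46 up (4 without array 1 and 5 without array 2) and 6 down (2 without array 1 and 4 without array 2; 14 with the block), led by SPS4 (-1.59). Message decay genes had 3 of 29 up (1 without array 1 and 1 without array 2; 5 with the block) and 5 down (2 without array 1 and 3 without array 2; 11 with the block). Histone gene regulators had 2 of 9 up (1 without array 1 and 1 without array 2), ASF1 (0.57) and SPT21 (0.31), and 3 down (0 without array 1 and 1 without array 2). Aminoacyl-tRNA synthetases had 0 of 17 up and 2 down (1 without array 1 and 0 without array 2; 4 with the block). The vacuolar proton pump had 0 of 17 up and 3 down (1 without array 1 and 0 without array 2), and the list of mitochondrially encoded subunits of respiratory complexes and the ribosome had 0 of 7 up and 1 down (0 without array 1 and 0 without array 2; 2 with the block). Over the whole mitochondrial chromosome, intron-encoded genes included, 2 of 17 fell and none rose. The other that fell was AI5_ALPHA (-1.70 on array 1 and -1.22 on array 2, mean -1.46 ± 0.30, adjusted p = 0.00401). The RNA was labelled after oligo-dT priming, and how well this captured mitochondrial transcripts was not tested. Over all genes 18.2% rose and 20.7% fell without the block. Apart from hexose transporters and histone gene regulators, the lists of this paragraph had shares near or below these, so their counts do not set them apart. Of the 7592 spots without a gene name, 131 lay at or above 2-fold up and 64 at or below 2-fold down on both arrays.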
